A study of Rattus norvegicus with 12 samples.

Results

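The genotype effect common to both gut segments was taken from all 12 arrays of the series (12 of 12), 6 from homozygous b/b Belgrade rats and 6 from +/b heterozygotes. The arrays were chosen by their titles alone, and no measured value entered the choice. Each genotype was represented by 3 groups of rats, and RNA scraped from the duodenum and from the jejunum of each group was hybridised to 1 Affymetrix array per segment. The rat group was thus the replicate, however many animals it held. The fit in limma used all 12 arrays and left 9 residual degrees of freedom, with 6.32 added from the variances of all probe sets. Its p-values therefore draw on the spread between rat groups and on that between the arrays of a group. They are not a measure of the spread between rat groups alone. Both genotypes carry the recessive b allele, a missense mutation of Slc11a2, which encodes the divalent metal transporter DMT1. The heterozygotes served as controls, so animals without the b allele were not part of the comparison. Ages, sexes, diets and the number of rats in a group are not stated in the labels.

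DMT1 moves ferrous iron across the apical membrane of duodenal enterocytes, and out of the endosome in the erythroid precursors that make haemoglobin. Homozygotes therefore have a lifelong hypochromic, microcytic anaemia with many circulating reticulocytes, young red cells that still hold globin and heme synthesis transcripts. Iron is absorbed mainly in the duodenum and far less in the jejunum. A change that is alike in both segments is a different measurement from a change of the duodenal uptake system alone.

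The change was asked for as 1 main effect, b/b minus +/b, on the scale of log2(scaled signal + 16). Segment was an additive term, and the rat group was a random block because both segments came from the same rats. Changes of dim genes are understated on this scale. Of 17694 probe sets tested, 8 passed a Benjamini-Hochberg adjusted p of 0.05 in limma, which is 0.0452%, and all 8 were higher in b/b rats. They read the lipoxygenase Alox15, the beta globin Hbb, the erythroid heme enzyme Alas2, and further globin genes in 5 probe sets that are each annotated to a pair of genes. A called probe set was described as moved alike when its changes in the segments had the same sign and the smaller was at least 0.5 of the larger. This description was met by 8 of the 8. With segment as an additive term, a difference between the segments adds to the error of the main effect. Probe sets that moved unequally were thus less likely to be called. That count, and the lack of overlap given next, describe the called sets and are no further test. In all 8, the b/b arrays lay above the +/b arrays without overlap in the duodenum and again in the jejunum, an order found in 40 of all probe sets tested (0.226%). No probe set (0.00%) was called lower, although 331 had an unadjusted p under 0.05 and a lower b/b level, against 180 with a higher one (1.87% and 1.02%). In this fit the 511 together were fewer than the 885 that an even spread of p-values would give. That count turned on the block. It was 1026 without a block and 1805 with the replicate number as a fixed block. On means per rat group it was 500, and 1349 on such means with a fixed replicate block. Over all probe sets the median main effect was -0.03, and 57.28% had the same sign in both segments.

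Alox15 encodes a 12/15-lipoxygenase, which adds oxygen to polyunsaturated fatty acids and, in red cell precursors, is known for attacking organelle membranes as reticulocytes mature. In the duodenum its scaled signal was 9.62, 14.4 and 19.4 in the +/b arrays (replicates 1, 2 and 3) and 789, 714 and 557 in the b/b arrays. In the jejunum it was 66.2, 18.8 and 51.3 in +/b and 689, 547 and 628 in b/b rats. Every b/b array stood far above every +/b array, and the b/b level was much the same in both segments. The main effect was 3.99 ± 0.35 (SE, 6 arrays from 3 rat groups per genotype), or 15.9-fold on the scale with the pseudocount (limma adjusted p = 5.47e-05). The change was 4.52 in the duodenum and 3.46 in the jejunum, a difference of -1.07 with a 95% interval of -2.09 to -0.04 (limma unadjusted p = 0.0307, adjusted p = 0.979 over all probe sets). Since the +/b signals were dim, the size depended on the pseudocount, with a main effect of 4.71 at a pseudocount of 1 and 2.96 at 64.

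Hbb encodes a beta chain of haemoglobin. Its duodenal signal was 3274, 3081 and 1792 in +/b and 16620, 11840 and 14490 in b/b arrays, and its jejunal signal was 2757, 1708 and 2159 in +/b and 11200, 9562 and 13460 in b/b arrays. The lowest b/b array was far brighter than the highest +/b array, whichever segment it came from. The main effect was 2.40 ± 0.20, or 5.28-fold (limma adjusted p = 5.39e-05, 6 arrays from 3 rat groups per genotype). The changes of 2.43 in the duodenum and 2.37 in the jejunum differed by -0.05 (95% interval -0.75 to 0.64).

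Alas2 encodes the erythroid form of aminolevulinate synthase, which catalyses the first step of heme synthesis in red cell precursors. Its duodenal signal was 105, 86.0 and 94.3 in +/b and 606, 393 and 702 in b/b rats. The jejunal values were 129, 68.8 and 23.5 in +/b and 430, 411 and 585 in b/b rats. All 6 b/b arrays were above all 6 +/b arrays, with 1 +/b jejunum array dimmer than its fellows. The main effect was 2.49 ± 0.32, or 5.62-fold (limma adjusted p = 0.00418), made up of 2.35 in the duodenum and 2.63 in the jejunum. Their difference was 0.27 (95% interval -0.84 to 1.39). The call was lost without both arrays of b/b rat group 1 (2.49, limma adjusted p = 0.0543) or of b/b rat group 3 (2.33, limma adjusted p = 0.106).

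**Figure D1:**
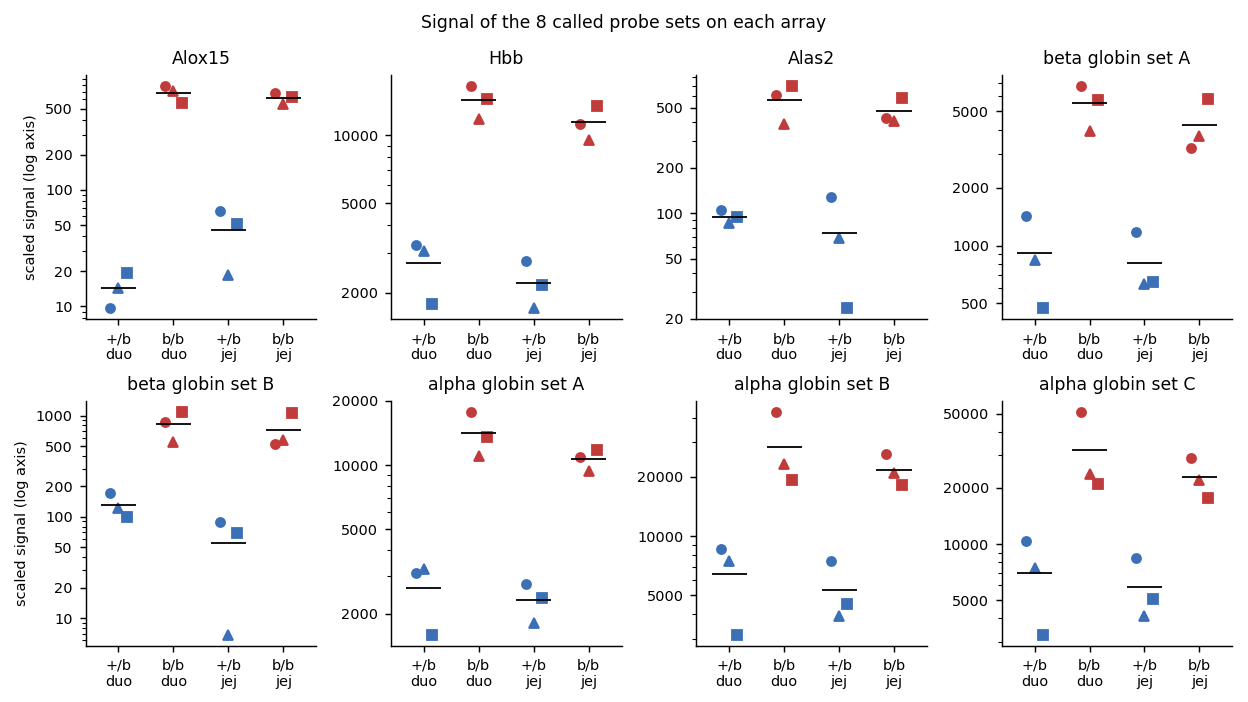
Scaled signal (log axis) of each of the 12 arrays for the 8 called probe sets, in panels by gene or globin annotation, with blue for +/b and red for b/b, circle, triangle and square for replicates 1, 2 and 3, and a black line for the mean of 3 arrays. In each panel the red points lie above the blue points in the duodenum and in the jejunum, as for Alox15 with 9.62 to 19.4 against 557 to 789 in the duodenum.

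The sequences upstream of these genes are shown because the globin genes and Alas2 changed together and textbook erythroid promoters carry known short words. Of the 3 called genes with a symbol of their own, 2 had an entry in the RefSeq promoter table (build GRCr8), and the alpha globin gene Hba-a3, which was measured but not called, had one too. The 250 bases before the annotated start are given 5′ to 3′ on the strand of the gene, with matches in capitals. The words searched, on both strands, were CACCC (bound by Kruppel-like factors), CCAAT (bound by NF-Y), and the word of the GATA factors, GATA with A or T before it and A or G after it.
Hbb, chr1:167663722-167663971, minus strand: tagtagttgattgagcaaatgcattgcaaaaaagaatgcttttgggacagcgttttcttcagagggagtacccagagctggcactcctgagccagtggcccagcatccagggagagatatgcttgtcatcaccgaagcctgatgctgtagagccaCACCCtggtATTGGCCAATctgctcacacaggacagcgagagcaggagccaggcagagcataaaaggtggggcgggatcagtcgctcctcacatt
Hba-a3, chr10:15816944-15817193, minus strand: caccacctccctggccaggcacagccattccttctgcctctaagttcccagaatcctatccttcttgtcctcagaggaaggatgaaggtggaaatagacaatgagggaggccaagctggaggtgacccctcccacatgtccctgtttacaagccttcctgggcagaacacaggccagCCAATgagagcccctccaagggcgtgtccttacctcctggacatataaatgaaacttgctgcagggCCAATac
Alas2, chrX:22895200-22895449, plus strand: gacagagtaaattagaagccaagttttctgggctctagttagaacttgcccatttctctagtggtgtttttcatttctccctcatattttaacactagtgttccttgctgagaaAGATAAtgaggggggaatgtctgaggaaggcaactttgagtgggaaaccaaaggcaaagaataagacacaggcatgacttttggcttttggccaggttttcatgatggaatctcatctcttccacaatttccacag
Upstream of Hbb, CACCC matched at -95 to -91, and CCAAT matched on the opposite strand at -86 to -82 and on the strand of the gene at -81 to -77, side by side without overlap. In Hba-a3, CCAAT matched at -73 to -69 and at -7 to -3. The Alas2 window held a GATA word at -136 to -131. That window lies inside the span of the gene in the RefSeq gene table, so it precedes the start of an annotated transcript and need not be the main erythroid promoter. Such words are common: of 33465 promoters of the same length, 49.23% held CACCC, 34.02% CCAAT and 27.02% a GATA word. The matches describe these windows only.

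The other 5 called probe sets were annotated to a pair of alpha or a pair of beta globin genes. Globin copies are nearly identical, and probes of 1 set can read transcripts of several of them, Hbb's own set included, so these are readings of the globin family and not of 5 separate genes. Alpha globin set A had a duodenal signal of 3106, 3252 and 1598 in +/b and 17760, 11030 and 13560 in b/b arrays. Its jejunal signal was 2762, 1806 and 2369 in +/b and 10890, 9422 and 11750 in b/b arrays. The genotypes stood apart in each segment, much as for Hbb, and the main effect was 2.33 ± 0.22, or 5.03-fold (limma adjusted p = 1.22e-04), with 2.45 in the duodenum and 2.22 in the jejunum. Alpha set B gave 2.13 ± 0.29 (limma adjusted p = 0.00549) and alpha set C gave 2.11 ± 0.32 (limma adjusted p = 0.0145). These were the brightest of the 8 probe sets, at 17710 to 51070 in b/b and 3159 to 10390 in +/b arrays over both sets. Set C lost its call in 7 of 33 alternative settings, with a limma adjusted p of up to 0.203, and set B in 3, with up to 0.0915. Both were lost without b/b rat group 1 or 2, and when the segments of each rat group were averaged.

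Beta globin set A gave 1420, 842 and 471 in +/b duodenum against 6814, 3954 and 5748 in b/b duodenum. In the jejunum it gave 1174, 627 and 643 in +/b against 3241, 3717 and 5782 in b/b arrays. The ranges did not meet in either segment, and the main effect was 2.53 ± 0.28, or 5.76-fold (limma adjusted p = 6.84e-04), with 2.68 in the duodenum and 2.38 in the jejunum. Beta set B was dimmer, at 171, 123 and 100.2 in +/b and 866, 552 and 1086 in b/b duodenum, and 88.0, 6.86 and 68.6 in +/b and 526, 573 and 1071 in b/b jejunum. Its main effect was 3.05 ± 0.43, or 8.25-fold (limma adjusted p = 0.00758), with 2.51 in the duodenum and 3.58 in the jejunum. The lone value of 6.86 in +/b jejunum replicate 2 was far below its fellows, and with a pseudocount of 1 the call was lost (3.44, limma adjusted p = 0.123). It was also lost without b/b rat group 1, 2 or 3 (limma adjusted p from 0.0535 to 0.106).

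The segments taken alone would have given an uneven picture of these 8 probe sets. In the fit with 4 group means, 4 were called in both segments (Alox15, Hbb, alpha set A and beta set A), 2 in the jejunum alone (Alas2 and beta set B) and 2 in neither (alpha sets B and C). None of the 8 was among the 2 probe sets (0.0113%) called for a difference between the segments (limma adjusted p from 0.979 to 0.999), and the estimated differences ran from -1.07 for Alox15 to 1.08 for beta set B. The ratio of the smaller to the larger change was 0.978 for Hbb, the closest to 1 of the 8, and 0.699 for beta set B, the lowest. Alox15 had 0.765.

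**Figure D2:**
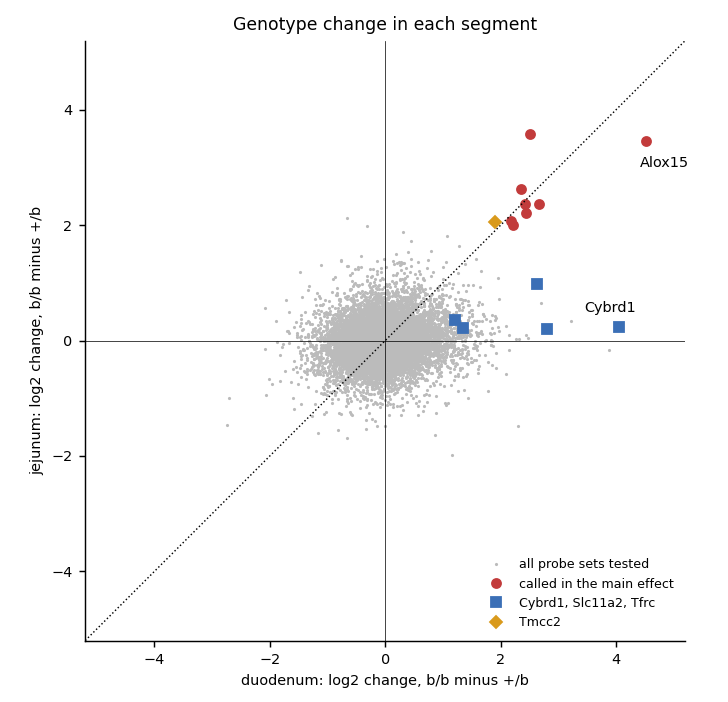
Genotype change (b/b minus +/b, log2 scale) in the jejunum against that in the duodenum for all 17694 probe sets tested, with the 8 called probe sets and several iron genes marked. The called sets lie around the line of equal change, from 2.18 in the duodenum and 2.07 in the jejunum for alpha set B to 4.52 and 3.46 for Alox15, whereas Cybrd1 lies at 4.05 and 0.24.

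Other erythroid genes were less uniform. Of 41 genes on a list of erythroid and blood genes, 12 passed the brightness filter, and the count among them was 2 called higher and 0 lower, with 9 above and 3 below 0 and a median of 0.21 (0.51 in the duodenum and 0.11 in the jejunum). That median rested on few arrays, at 0.09 with 7 above and 5 below 0 without b/b duodenum replicate 1, 0.03 without the 2 arrays deposited at a far trimmed mean, 0.33 without +/b rat group 1 and 0.34 without b/b jejunum replicate 1. Alox15, Alas2 and beta set B passed the brightness filter through their b/b level alone, so counts over the genes that passed are a description, and without the filter 8 probe sets were called as well. Over all genes tested the median was -0.03, with 4450 above and 5617 below 0. Hba-a3, an alpha globin gene with a probe set of its own, had a main effect of 1.00 ± 0.32 (limma adjusted p = 1), with 0.82 in the duodenum and 1.19 in the jejunum. Its genotypes overlapped in the duodenum (482, 726 and 166 in +/b, 549, 777 and 813 in b/b) and not in the jejunum (264, 204 and 233 in +/b, 426, 559 and 694 in b/b). Ahsp, the chaperone of free alpha globin, was under the filter with a mean signal of 63.4. Without the filter it had 2.02 ± 0.44 (limma adjusted p = 0.579), with 1.90 in the duodenum and 2.15 in the jejunum. Its arrays read 15.2, 25.4 and 22.1 in +/b and 94.6, 118 and 156 in b/b duodenum, and 8.52, 4.86 and 5.15 in +/b and 21.0, 162 and 128 in b/b jejunum, without overlap in either segment.

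Red cell membrane and carrier genes on the list did not pass the test. Slc4a1, the band 3 anion exchanger of the red cell membrane, had 0.30 ± 0.63 (1.21 in the duodenum, -0.61 in the jejunum, limma adjusted p = 1), and its signal was near the filter in most arrays. Rhd, the Rh blood group gene, had 0.77 ± 0.55, and Slc25a37, the mitochondrial iron importer mitoferrin, -0.47 ± 0.52. Outside this list Fech, which inserts iron into heme, had 0.07 ± 0.17, with 0.04 in the duodenum and 0.09 in the jejunum (limma adjusted p = 1 for these 3 genes). Of 19 heme synthesis and breakdown genes Alas2 alone was called, and their median was 0.04 (0.004 to 0.13 on leaving out arrays or rat groups). The called members of these lists were thus Hbb and Alas2, while the membrane genes other than Rhd had changes smaller than their errors.

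**Figure D3:**
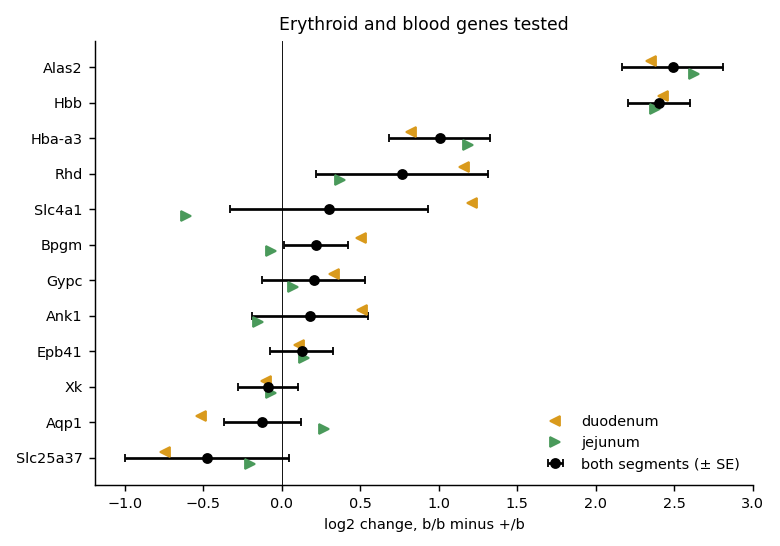
Log2 change (b/b minus +/b) of the 12 tested genes of the erythroid and blood list, with the main effect and its SE as a black point and bar and the changes in the duodenum and jejunum as orange and green triangles. Hbb (2.40) and Alas2 (2.49) lie far above 0 in both segments, Hba-a3 (1.00) lies between, and the triangles of Slc4a1 fall on opposite sides of 0.

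A gut scrape holds blood as well as epithelium, and in RNA of whole tissue more cells of a type cannot be told apart from more RNA per cell. Over the 26 erythroid genes read by a probe set with 1 gene, whatever their brightness, the mean log2 level was 6.65 to 6.99 in +/b duodenum and 7.08 to 7.70 in b/b duodenum, and 6.68 to 6.85 in +/b and 7.19 to 7.33 in b/b jejunum. The 3 b/b rat groups were all above the 3 +/b rat groups (difference 0.52, exact two-sided permutation test, p = 0.1, the smallest that 3 against 3 allows). The 26 genes include the called Hbb and Alas2, read on the same arrays. This level therefore restates those calls in part and is no separate support for them. Alox15 is also an enzyme of eosinophils and macrophages, so their markers were read too. The 9 eosinophil markers averaged 6.24 in +/b and 6.30 in b/b rats (exact permutation p = 0.6). Of their defining genes, Prg2, a granule protein, read 9.87 to 78.0 in +/b and 9.13 to 50.4 in b/b arrays. Epx read 4.72 to 43.4 in +/b and 6.62 to 203 in b/b arrays, the highest being b/b duodenum replicate 1. Ccr3 overlapped in the duodenum. In the jejunum Ccr3 was lower in b/b without overlap, at 70.5 to 203 in +/b and 17.9 to 65.8 in b/b arrays. The 17 macrophage markers averaged 7.72 and 7.64 (exact permutation p = 0.9), the 10 neutrophil markers differed by 0.07 (p = 0.8), and the 16 mast cell markers averaged 6.53 and 6.45 (p = 0.9, the same exact test). Most of these markers were dim. The brightness filter was passed by 1 eosinophil, 0 neutrophil, 5 mast cell and 11 macrophage genes. Mean levels of the dim lists therefore say little about those cells, and the cells that Alox15 was read from were not tested. The part of blood in the called changes was not tested.

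Enterocyte markers were bright in both genotypes, as the label of a mucosal scrape calls for. Vil1, a brush border actin bundler, read 15600 to 37620 in +/b and 14480 to 45680 in b/b arrays, with a main effect of -0.10 ± 0.30, and the fatty acid binding protein Fabp2 had -0.15 ± 0.36 (limma adjusted p = 1 for both). Exocrine pancreas genes stood high in 2 duodenal arrays, +/b replicate 2 and b/b replicate 3, with mean log2 levels of 12.5 and 8.56 against 6.00 to 7.02 in the other 10 arrays. Without those 2 arrays 8 probe sets were called, as with them. The +/b duodenum replicates 2 and 3 were deposited with trimmed means of 51.6 and 126.6 against 500.2 in the other 10 arrays and were multiplied by 9.69 and 3.95. Without these arrays 9 probe sets were called, the 8 and Tmcc2.

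Tmcc2, a transmembrane coiled-coil protein gene, came next to the threshold. Its duodenal signal was 50.6, 250 and 129 in +/b and 513, 413 and 587 in b/b arrays, and its jejunal signal was 188, 93.0 and 68.9 in +/b and 481, 436 and 580 in b/b arrays. The genotypes did not overlap in either segment. The main effect was 1.98 ± 0.38, or 3.95-fold (limma adjusted p = 0.174), with 1.91 in the duodenum and 2.05 in the jejunum. It was called in 9 of 33 alternative settings, among them the fits without the rat group block (limma adjusted p = 0.0165) and with the replicate number as a fixed block (limma adjusted p = 0.0405). Besides Slc11a2, treated below, the 5 other genes of smallest p with a higher b/b level were Adamtsl5 (0.86 ± 0.21), the pyrimidine salvage enzyme Cda (0.89 ± 0.22), the carbonic anhydrase Car2 (0.76 ± 0.19), the ERK phosphatase Dusp6 (1.01 ± 0.28) and the lactate dehydrogenase Ldhd (0.82 ± 0.23), each with a limma adjusted p of 1. Adamtsl5, Cda and Car2 did not overlap between genotypes in either segment, and a second Car2 probe set had 0.59 ± 0.18, also without overlap. A second Adamtsl5 set had 0.68 ± 0.36 and overlapped in both segments, and the other Dusp6 sets had smaller values of 0.37 ± 0.15 and 0.39 ± 0.16. Ldhd differed in size, with 1.24 in the duodenum and 0.39 in the jejunum.

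Iron uptake genes had main effects whose larger part lay in the duodenum. Cybrd1, the duodenal ferric reductase, had a main effect of 2.15 ± 0.73 (limma adjusted p = 1), which averages 4.05 in the duodenum and 0.24 in the jejunum. Slc11a2 itself had 1.80 ± 0.52 on its brighter probe set (2.63 and 0.98) and 1.51 ± 0.54 on its dimmer one (2.81 and 0.21). Tfrc, the transferrin receptor, had 0.79 ± 0.27 (1.35 and 0.22), and none of these met the description of moving alike. The calls of these genes turned on the setting: on means per rat group with a fixed replicate block limma called Cybrd1 (adjusted p = 0.00755) and both Slc11a2 sets (0.0146 and 0.00286), and without b/b jejunum replicate 2 it called the brighter Slc11a2 set (2.24, adjusted p = 0.0452). On its brighter set Slc11a2 read 3056 to 6080 in +/b and 21650 to 28450 in b/b duodenum. In the jejunum it read 416 to 1149 in +/b and 474 to 3676 in b/b arrays, which overlap. A missense mutation need not change the amount of transcript, so the Slc11a2 level is no check of the labels. Of 25 iron handling genes tested 0 were called, with 15 above and 10 below 0 and a median of 0.07 (-0.002 without b/b rat group 1 and 0.13 without b/b rat group 3).

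Hypoxia-inducible factors are transcription factors that are stabilised when oxygen or iron is short. Of 38 of their known targets tested, 0 were called. A main effect above 0 was found in 32 and below 0 in 6, against 4450 and 5617 of all genes tested. Their median was 0.22 (0.24 in the duodenum, 0.14 in the jejunum). In limma 8 had an unadjusted p under 0.05, all higher, against 118 higher and 205 lower among all 10067 genes. Slc11a2, Cybrd1 and Tfrc are on this list as well. The prolyl hydroxylase Egln3, which marks the factors for destruction, had 0.76 ± 0.23, or 1.69-fold (limma adjusted p = 1), with 1.00 in the duodenum and 0.51 in the jejunum. Its jejunal values did not overlap (1017 to 1276 in +/b, 1404 to 2141 in b/b), and its duodenal values did (1291 to 1913 and 1848 to 4023). Vegfa, the vascular growth factor, had 0.30 ± 0.20 on its brighter probe set and 0.09 ± 0.29 on the other. Against the median of all probe sets, the median of the targets was higher by 0.19 to 0.28 in all 33 alternative settings. Settings that changed only the block, the averaging per rat group or the trend could not move this median, so they add nothing to the range.

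On the lower side no gene was called in limma, and 97 probe sets (0.548%) had all b/b arrays below the +/b arrays in both segments. Gcnt2, a branching glycosyltransferase of the I blood group antigen, had -1.16 ± 0.25, a 2.23-fold lower level (limma adjusted p = 0.643), with -1.21 in the duodenum and -1.10 in the jejunum. Its duodenal arrays read 4501, 2023 and 4372 in +/b and 1646, 2112 and 906 in b/b, and its jejunal arrays 4630, 2824 and 4825 in +/b and 1633, 2400 and 1608 in b/b. The duodenal ranges overlapped through +/b replicate 2, and the jejunal ranges did not. The mitochondrial import chaperone Timm9 had -0.61 ± 0.16 (-0.63 and -0.60 by segment) and Dhrs4, a dehydrogenase/reductase, -0.53 ± 0.16 (-0.56 and -0.50), both without overlap in either segment (limma adjusted p = 1). Beside genes of the lists below, the others of smallest p were the kinetochore gene Spc25 (-0.73 ± 0.21), the cyclin Ccnh (-0.60 ± 0.18) and Tmem64 (-0.74 ± 0.22). For 3 of these 6 genes the probe sets or segments differed. A second Dhrs4 set had 0.29 ± 0.47, other Tmem64 sets had -0.23 ± 0.36 and -0.47 ± 0.19, and Ccnh had -0.86 in the duodenum and -0.33 in the jejunum.

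Genes of the intestinal crypt, where stem and progenitor cells divide, were mostly below 0. Lists of other tissue layers leaned the same way. Of 23 smooth muscle and fibroblast genes 19 were below 0 (median -0.19, with -0.29 in the duodenum and -0.07 in the jejunum). Of 11 endothelial markers 7 were below 0 (median -0.24, with -0.46 and -0.07). Relative to all probe sets these medians reached 0.02 and 0.06 at their highest over the settings. Whether the scrapes differed in depth was not tested. Of 14 crypt stem and progenitor genes tested, 13 had a main effect below 0 and 1 above, against 5617 and 4450 of all genes tested. Their median was -0.50 (-0.57 in the duodenum and -0.39 in the jejunum), and 0 were called. Ascl2, a stem cell transcription factor, had -1.18 ± 0.38 (limma adjusted p = 1). It read 184, 109 and 137 in +/b and 26.2, 24.0 and 58.9 in b/b duodenum, and 185, 156 and 141 in +/b and 94.1, 110 and 72.9 in b/b jejunum, all b/b arrays lower within a segment. Cdca7, a chromatin protein gene, had -0.87 ± 0.24 and did not overlap in either segment, and the chloride importer Slc12a2 had -0.79 ± 0.23 with overlap in the jejunum. Smoc2 had -0.56 ± 0.24, and Lgr5, the receptor that marks crypt base stem cells, was dim and had -0.69 ± 0.57. The mean log2 level of the 15 crypt genes read on the array was 8.79 in +/b and 8.35 in b/b rat groups (difference -0.44, exact permutation p = 0.1, the smallest possible). This level was read from much the same genes on the same arrays. It restates the counts and median above and is no separate support for them.

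Cell cycle genes pointed the same way in number. Of 51 tested, 48 were below 0 and 3 above, against 5617 and 4450 of all genes tested. Their median was -0.36 (-0.39 and -0.34 by segment), and 0 were called. In limma 7 had an unadjusted p under 0.05, all lower, against 205 lower and 118 higher among all 10067 genes. Without +/b rat group 3 the median was -0.23. The cyclin-dependent kinase subunit Cks2 had -0.64 ± 0.21, the kinetochore gene Cenpf -0.74 ± 0.27, the replication helicase subunit Mcm3 -0.73 ± 0.28 and the spindle checkpoint kinase Ttk -1.02 ± 0.43 (limma adjusted p = 1 for these 4). Mki67, the proliferation antigen, had -0.42 ± 0.29, and its jejunal values of 1352 to 2679 in +/b and 964 to 2382 in b/b overlapped. The mean level of the list, which restates these values, gave a difference of -0.34 (exact permutation p = 0.2). Genes of 1 list read in the same scrapes are not independent observations. Paneth cells sit in the crypt as well, and 6 of their 7 tested genes were below 0, with a median of -0.41. It was -0.18 without +/b rat group 1 and -0.16 without b/b rat group 3. On values without rescaling it was 0.46, above 0 but below the 0.75 of all probe sets. Relative to the median of all probe sets it lay at -0.56 to -0.13 over the settings.

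Fatty acid oxidation genes had small values that matched in sign between segments in 23 of 24 cases, against 59.46% of all genes. Of the 24, 20 were below 0, against 5617 of all 10067 genes. Their median was -0.18 (-0.17 in the duodenum and -0.19 in the jejunum), and 0 were called. Eci1, an enoyl-CoA isomerase of mitochondria, had -0.80 ± 0.21 (limma adjusted p = 1). Its duodenal signal was 2331, 3878 and 2613 in +/b and 1381, 1930 and 1065 in b/b arrays, and its jejunal signal was 2866, 3660 and 3409 in +/b and 2706, 1918 and 2004 in b/b arrays, without overlap in either segment. The thioesterase Acot2 had -0.76 ± 0.24 on its brightest probe set and -0.82 ± 0.22 and -0.81 ± 0.39 on the others. The reductase Decr1 had -0.64 ± 0.23 without overlap in either segment, and Hadh, a dehydrogenase of the cycle, -0.38 ± 0.16. The values below 0 of the crypt, cell cycle and fatty acid oxidation lists held under median centring and quantile normalization, but all 3 medians were above 0 (0.41 for the cell cycle) on values without rescaling, where the median of all probe sets was 0.75. Relative to the median of all probe sets, the medians of the crypt list lay at -0.63 to -0.33 over the 33 settings. Those of the cell cycle list lay at -0.45 to -0.20 and those of the fatty acid oxidation list at -0.24 to -0.06. Here too, settings of the block, the averaging per rat group or the trend could not move the medians.

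**Figure D4:**
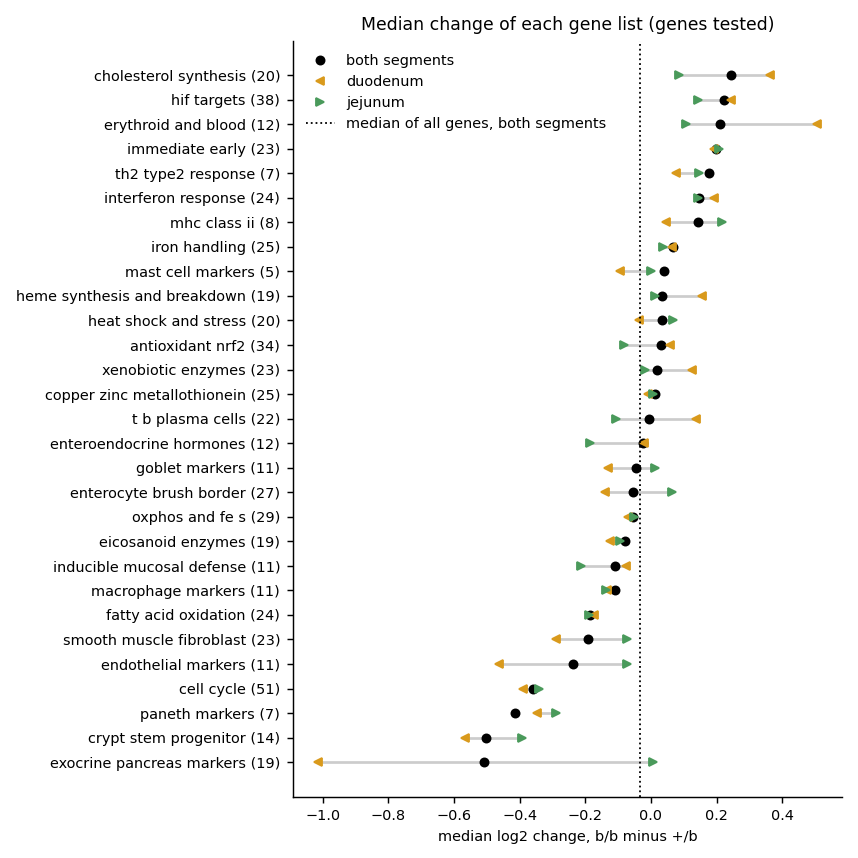
Median change (b/b minus +/b, log2 scale) of each gene list over its tested genes, for the main effect and for each segment, beside the median of all genes tested. The crypt (-0.50), Paneth (-0.41) and cell cycle (-0.36) lists lie below 0 in both segments, as do the endothelial (-0.24) and smooth muscle (-0.19) lists. Hypoxia-inducible factor targets (0.22) lie above 0, while the pancreas list is at -1.01 in the duodenum and 0.005 in the jejunum. On values without rescaling the medians below 0 of the crypt, Paneth, cell cycle and fatty acid oxidation lists were above 0. Each was still below the median of all probe sets in that setting, 0.75.

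Immune and stress lists held 0 called genes. Among all 10067 genes tested, 4450 had a main effect above 0. Of the 8 MHC class II genes, which present peptides to helper T cells, 8 were above 0 with a median of 0.14 (0.05 in the duodenum and 0.21 in the jejunum), but the median was -0.16 without +/b rat group 3, -0.09 without b/b rat group 1 and 0.42 without b/b rat group 3. Interferon response genes had 19 of 24 above 0 (median 0.15), with medians of 0.06, 0.33 and 0.07 without +/b rat groups 1, 2 and 3 and 0.08 without b/b rat group 2. Immediate early genes had 18 of 23 above 0 (median 0.20, and 0.06 without +/b rat group 1). Cholesterol synthesis genes had 17 of 20 above 0 and a median of 0.24, which was -0.01 without the 2 pancreas-rich arrays, 0.02 without b/b rat group 3 and 0.42 without b/b rat group 1. Among 19 eicosanoid enzymes, Alox15 was the 1 called, and the rest ran with a list median of -0.08 (-0.15 without b/b rat group 1 and -0.01 without b/b rat group 2). The lipoxygenase activator Alox5ap had -0.76 ± 0.35, the epoxide hydrolase Ephx2 -0.39 ± 0.17 and the phospholipase Pla2g2a -0.97 ± 0.50 (limma adjusted p = 1 for these 3). The related lipoxygenases Alox5 and Alox12 were under the brightness filter in these scrapes, with mean signals of 52.2 and 82.6.

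The remaining genes read for iron and inflammation did not pass the test. Slc40a1, the iron exporter ferroportin, had 0.34 ± 0.40 on its brightest probe set, with 0.86 in the duodenum and -0.18 in the jejunum. Its other sets had -0.07 ± 0.36 and 0.30 ± 0.37. Heph, the ferroxidase partner of Slc40a1, had 0.08 ± 0.14. Hmox1, the heme oxygenase that frees iron from heme, had 0.38 ± 0.39 (0.68 and 0.09 by segment). Atp7a, a copper exporter, had 0.56 ± 0.40 on its brightest probe set and 0.85 ± 0.58 and 0.30 ± 0.41 on the others. By segment the brightest Atp7a set had 1.14 in the duodenum and -0.025 in the jejunum. Hamp, the iron hormone hepcidin, had 0.16 ± 0.40 (-0.30 and 0.61 by segment), and the metallothionein Mt1 0.41 ± 0.56. Cd68, a macrophage lysosome protein, had 0.10 ± 0.33 (limma adjusted p = 1 for these 7 genes). For Mt1 a single b/b rat group was high in both segments (680 and 861 in replicate 1, against 77.6 to 163 in the other 4 b/b arrays).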

How the data were processed

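The deposited file held 1 signal intensity per probe set and array on a linear scale. The submitters' processing notes name MAS5 for 10 arrays. Its version and settings, not given in the sources used here, could move the values of dim probe sets. Each array was multiplied to a trimmed mean of 500, leaving out 2% at each end. Control probe sets (57 of 31099) were removed, and those whose mean scaled signal reached 100 were tested. In the platform annotation 20826 probe sets had 1 gene, 436 had several and 9780 had none, and 20758 gene IDs matched the RefSeq gene table.

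The test was limma 3.58.1 (R 4.3.3, statmod 1.5.0) on log2(scaled signal + 16), with eBayes, an intensity trend and the rat group as a random block through duplicateCorrelation (consensus correlation 0.297 in the fit of the main effect and 0.314 in the fit with 4 group means). It was tested on simulated data. P-values were two-sided and adjusted by the Benjamini-Hochberg method over 17694 probe sets. The block follows the series design, in which both segments of 1 number within a genotype come from the same rats. Deviations of such pairs of arrays from their group means correlated at 0.186 to 0.277 in +/b and 0.158 to 0.382 in b/b rats. Gene lists (31, with 823 symbols, 550 of them tested) are described by counts and medians over the brightest probe set of each gene. Those counts and medians were not tested. The mean log2 levels of marker lists were compared by the exact permutation test over the means of the rat groups. The members and lists were chosen with earlier results of these data known.

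Named are called genes, the genes of smallest p up to 10 per direction, a list of genes chosen whatever their result, up to 4 members of each list discussed by smallest p, and called probe sets with several genes. Rhd, Alox5ap, Pla2g2a, Alox5, Alox12, Prg2, Epx, Ccr3 and Decr1 are given beside them as members of the same lists or as markers. Alternatives covered the pseudocount, filter, scaling, block, trend, array weights, and each array and rat group left out. The number of arrays limits the precision. Intervals are 95%.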

Additional observations from a re-analysis of the deposited data

Results flagged for a closer look

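The ferric reductase gene Cybrd1 was raised by genotype in the duodenum and not alike in the jejunum, and the difference itself was tested. Its jejunum minus duodenum difference of the genotype change was -3.80 on the log2 scale (95% interval -4.90 to -2.71, limma adjusted p = 0.0207), from changes of 4.05 and 0.24. The duodenal signal was 600, 771 and 1157 in +/b and 5752, 22240 and 20080 in b/b arrays, and the jejunal signal was 228, 174 and 268 in +/b and 226, 325 and 251 in b/b arrays. It was 1 of 2 probe sets called for this difference, which is 0.0113% of those tested, and the other had no gene in the annotation.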

How the results depend on the processing

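The count of 8 called probe sets was 7 to 9 when any 1 of the 12 arrays was left out. When a whole rat group was left out it was 4 to 8, the lowest being 4, 5 and 6 on leaving out b/b rat groups 1, 2 and 3, and the count moved alike had the same range. On values as deposited, without rescaling, 13 were called and 9 moved alike, and the median of all probe sets was 0.75. The fit with no replicate block called 9, a fixed replicate block 9, means per rat group 7, and such means with a fixed replicate block 12, of which 9 moved alike. Same-numbered arrays of different genotypes come from different rats. Their deviations correlated at -0.06 to 0.17 in the duodenum, but at 0.12 to 0.41 in the jejunum and 0.14 to 0.45 between +/b jejunum and b/b duodenum, as high as within a genotype. The labels do not say whether a number also marks a shared batch. Alox15, Hbb, alpha set A and beta set A passed in all 33 settings, and no setting called a probe set lower.

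Among uncalled genes, signs turned without rescaling for Eci1 (0.064), Timm9 (0.22), Acot2 (0.015 and 0.081), Spc25 (0.044), Slc12a2 (0.067), Ccnh (0.23), Tmem64 (0.024), Dhrs4 (0.32), Slc25a37 (0.11), Mki67 (0.41), Cenpf (0.026), Fabp2 (0.73), Vil1 (0.78), Smoc2 (0.26), Cks2 (0.17), Mcm3 (0.015), Decr1 (0.23), Hadh (0.49) and Ephx2 (0.48). Signs also turned for Mt1 with array weights (-0.10), for Slc4a1 without the 2 arrays of far trimmed mean (-0.30), and for Fabp2 (0.053) and Vil1 (0.046) without both pancreas-rich arrays, a setting added after the data were seen. With 1 array or rat group left out, Hamp ran from -0.074 to 0.35, Cd68 from -0.068 to 0.27, Slc4a1 from -0.17 to 0.70, Mt1 from -0.46 to 1.03, Fech from -0.097 to 0.18, Fabp2 from -0.62 to 0.24 and Vil1 from -0.48 to 0.22.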
